A study of Mus musculus with 8 samples.

Results

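The initiation and elongation factors of cytosolic translation were examined in red skeletal muscle of mice that lack a working Pus1 gene. Members were all autosomal genes whose symbol starts with Eif or Eef and a number, with Eif4ebp1 left out. Symbols were found by matching the accession of each array probe to RefSeq. Of the 20972 genes with a probe, 65 met this rule, and 63 of the 11453 genes tested did, 50 named Eif and 13 named Eef. Eif5b, which helps the ribosomal subunits join, and Eif4e1b, a cap-binding protein gene of the germ line, were not tested. The only Eif5b probe exceeded background in 1 of 4 wild types and 1 of 4 mutants, and both Eif4e1b probes did in 0 samples. The protein-coding genes Eef1akmt3 and Eef1akmt4-ece2 had no matched probe. Eif1ax, Eif2s3x and Eif2s3y, 3 genes that have probes, were left out as sex-linked.

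The gastrocnemius is a calf muscle, and RNA of its red part was taken from 4 Wild Type PUS1 and 4 Homozygous Mutant PUS1 mice, all C57BL/6J after 5 generations of backcrossing and 14 to 16 weeks old. Each of 4 arrays held 1 wild type and 1 mutant of the same individual number and sex, males on arrays 1 and 2 and females on arrays 3 and 4. The mutant carried Cy5 on arrays 1 and 3 and Cy3 on arrays 2 and 4. The series is titled a knockout, and its labels do not say which part of Pus1 is altered. The question asked of these genes was whether their transcripts differ when Pus1 is lost, and whether initiation and elongation factors differ alike.

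Pus1 encodes pseudouridine synthase 1, which converts uridine to pseudouridine in tRNAs. Translation initiation factors (eIFs) bring the initiator tRNA, the small ribosomal subunit and the capped mRNA together, find the start codon and let the large subunit join. eIF2 carries the initiator tRNA, and kinases that phosphorylate its alpha subunit slow translation under stress. Elongation factors (eEFs) then deliver the elongator tRNAs (eEF1A), recharge eEF1A with GTP (the eEF1B subunits) and move the ribosome along the mRNA (eEF2). Adult muscle fibres are known for switching from the widespread eEF1A1 to its close relative eEF1A2.

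Values are log2 ratios of mutant over wild type on each array, after background correction and loess normalization, and log2 levels of each sample, which hold for 1 probe and are not compared between genes. The Pus1 transcript was at least 3.57-fold lower in mutants (limma adjusted p = 0.0454, n = 4 arrays). The probe exceeded background in 4 of 4 wild types and 0 of 4 mutants, so the fold is a bound, set against the lowest signal above background in each mutant. The measured mean levels were 8.74 and 6.83, and the measured ratios -1.95, -1.53, -2.13 and -2.01. Per sample, 39.7% to 47.3% of the probes stood well above background. All 13 skeletal muscle markers were so in all 8 samples, as were 5 of 5 endothelial and 5 of 5 fibroblast markers, 4 of 5 erythroid, 3 of 4 macrophage, 3 of 4 Schwann cell and 2 of 6 adipocyte markers with a probe. The mean level of the erythroid markers ran from 10.4 to 11.7 in wild types and from 10.6 to 13.4 in mutants, and the part of other cells in the factor genes' values was not tested. In bulk tissue, fewer cells of a type cannot be told apart from less RNA per cell.

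No translation factor gene passed the test for genotype. Of the 63 genes, 0 passed an adjusted p under 0.05 in limma, where 0.0175% of all genes tested did, and 0 passed an unadjusted p under 0.05, where 5.87% of all genes did. Their adjusted p values began at 0.707. The fitted values were higher in mutants for 31 genes and lower for 32, where 54.2% of all genes were higher. The median log2 change was -0.0013, against 0.012 over all genes, and the median size of a change was 0.047, against 0.074. Fitted changes ran from -0.18 for the eIF2 alpha kinase gene Eif2ak4 to 0.18 for the kinase gene Eif2ak3. Each gene's 95% interval, taken alone, held 0. The bound farthest from 0 was 0.42 for Eif4a2, a 1.34-fold difference, with the brightest probe and the processing used here. Without the dye term the farthest bound was 0.56, a 1.47-fold difference, for Eif4g2. Over every probe kept it was 0.64, a 1.55-fold difference, for an Eif4b probe, and in the deposited value table it was 0.92, a 1.89-fold difference, for the methyltransferase gene Eef1aknmt, both looked up after the data were seen. All 63 genes were well above background in all 8 samples by the scanner's flag, and 0 had a saturated spot. Some were dim, as the lowest signal above background averaged 6.90 over the mutants. The lowest wild type level was 7.23 for Eif2ak2, 7.27 for Eif2ak3 and 6.86 for Eef1aknmt.

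**Figure D1:**
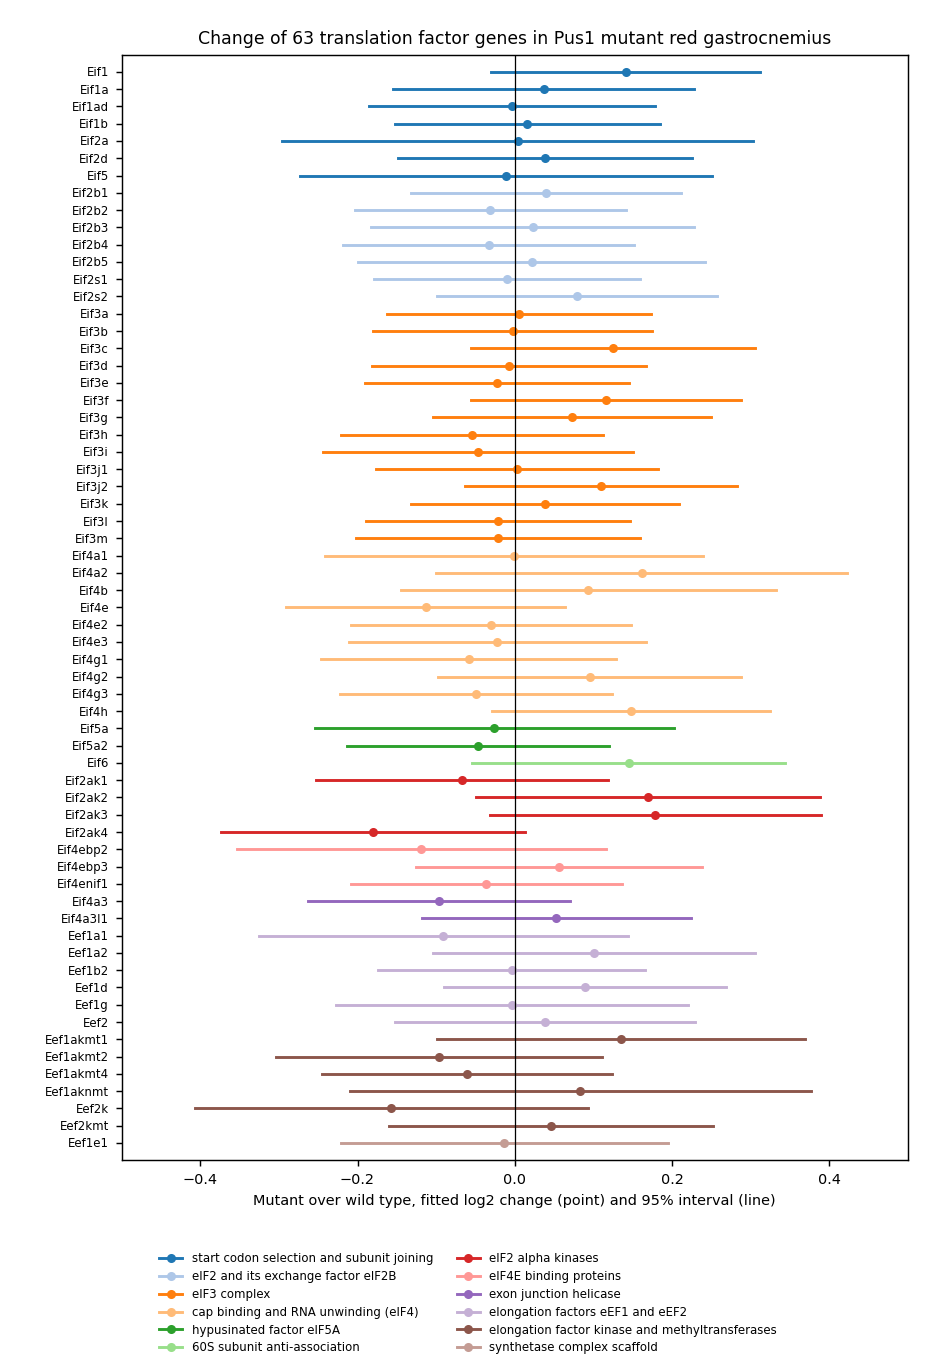
Fitted log2 change of mutant over wild type (x axis) of the 63 factor genes (y axis), with colours for roles; points are limma estimates from 4 arrays and lines their 95% intervals. Every line crosses 0, and the one reaching farthest, for Eif4a2, ends at 0.42.

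By the brightest probe, levels of the 4 mutants and the 4 wild types overlapped in each of the 63 genes (1.21% of all genes tested did not overlap). Of the 86 probes, 2 did not overlap, the second probes of Eif2s2 and Eif4e, against 1.25% of all named probes kept. The ratio kept 1 sign on 4 of 4 arrays in 5 factor genes, where 10.4% of all genes did so. It was higher on every array for Eif2ak2, Eif3f, Eif4h and Eif6, against 6.5% of all genes, and lower on every array for Eif2ak4, against 3.94% of all genes.

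The group of start codon selection and subunit joining held Eif1, Eif1a, Eif1ad, Eif1b, Eif2a, Eif2d and Eif5, not all of which select the start codon. It had 5 of 7 genes with higher values and a median of 0.016. Eif1, whose product keeps the scanning ribosome open until a start codon is found, had levels of 16.07, 15.95, 16.15 and 16.00 in the wild types, in the order of the arrays, and 15.93, 16.42, 16.00 and 16.37 in the mutants. Mutants 2 and 4 lay above all wild types, mutant 1 below them and mutant 3 among them. The change was 0.14 (SE 0.07, 95% interval -0.03 to 0.31, limma adjusted p = 0.707). A second Eif1 probe gave 0.20 (SE 0.07, limma adjusted p = 0.722, here and for other second probes adjusted over all named probes kept), with ratios of -0.033, 0.51, -0.17 and 0.50. Both probes were thus higher on the arrays where the mutant carried Cy3 and lower on the others. The remaining genes here ran from -0.011 for Eif5, the GTPase activator of eIF2, to 0.038 for Eif2d, which can load initiator tRNA without eIF2.

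Next came the initiator tRNA carrier eIF2 and its GTP exchange factor eIF2B. By the brightest probe, 4 of their 7 genes had higher values, the median was 0.021 and the range -0.033 for Eif2b4 to 0.079 for Eif2s2. Eif2s1, which encodes the alpha subunit that the stress kinases phosphorylate, had levels of 11.16, 11.26, 11.58 and 11.60 in wild types and 11.21, 11.25, 11.58 and 11.52 in mutants. On the brightest probe the samples of each pair lay close together, and both female pairs lay above both male pairs. Its change was -0.010 (SE 0.07, 95% interval -0.18 to 0.16, limma adjusted p = 0.974). Eif2s2, the beta subunit gene, had a second probe at 0.31 (SE 0.09, limma unadjusted p = 0.0162, adjusted p = 0.722) with ratios of 0.34, 0.55, 0.19 and 0.17, while the probe used, the brighter one, had ratios of 0.075, 0.14, 0.12 and -0.017. Eif2b1, an eIF2B subunit gene and the only factor gene within 20 Mb of Pus1 on chromosome 5, was at 0.040 (SE 0.07), with ratios of 0.030, 0.11, -0.081 and 0.10.

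By the brightest probes, the kinases of eIF2 alpha held both ends of the range. Eif2ak4 encodes GCN2, which senses uncharged tRNA. Its levels were 8.24, 8.47, 8.44 and 8.46 in wild types and 7.95, 8.23, 8.38 and 8.33 in mutants. Each mutant lay below its paired wild type, by -0.29, -0.24, -0.058 and -0.13 on arrays 1 to 4, but wild type 1 lay among the mutants. The change was -0.18 (SE 0.08, 95% interval -0.37 to 0.014, limma unadjusted p = 0.0626, adjusted p = 0.707). Eif2ak3 encodes PERK, the kinase of endoplasmic reticulum stress, with levels of 7.27, 7.52, 7.60 and 7.80 in wild types and 7.80, 7.57, 7.99 and 7.55 in mutants. Mutants 1 and 3 were above their partners by 0.53 and 0.40, mutant 2 was close to its partner at 0.049, and mutant 4 was lower at -0.26. That gave 0.18 (SE 0.08, 95% interval -0.032 to 0.39, limma adjusted p = 0.707). Eif2ak2, the gene of the double-stranded RNA sensor PKR, had levels of 7.23, 7.37, 7.52 and 7.66 in wild types and 7.61, 7.57, 7.55 and 7.73 in mutants. The wild type range covered 3 of the 4 mutants, and the ratios of 0.38, 0.20, 0.035 and 0.070 were larger in the male pairs. Its change was 0.17 (SE 0.09, 95% interval -0.049 to 0.39, limma adjusted p = 0.707). Eif2ak1, the gene of the haem-regulated kinase, was at -0.068.

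eIF3, the scaffold that binds the small ribosomal subunit, had higher values for 7 of its 14 genes and lower ones for 7, in a range from -0.054 for Eif3h to 0.12 for Eif3c. Eif3c had levels of 13.78, 13.73, 13.65 and 13.60 in wild types and 13.76, 14.01, 13.75 and 13.74 in mutants. Mutant 2 stood above all other samples, and the other mutants lay within the wild type range. The change was 0.12 (SE 0.07, limma adjusted p = 0.707), and a second Eif3c probe was at -0.0043. Eif3f, which was higher on 4 of 4 arrays, also stood at 0.12 (SE 0.07, limma adjusted p = 0.708), with ratios of 0.18, 0.13, 0.12 and 0.041. Among other subunit genes, Eif3g was at 0.072 and Eif3i at -0.047, and Eif3a, Eif3b, Eif3d and Eif3e ran from -0.023 to 0.0054.

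In the group that binds the mRNA cap and unwinds RNA, 4 of 10 genes had higher values, with a median of -0.012. Eif4e, the cap-binding protein gene, had levels of 11.32, 11.58, 11.22 and 11.45 in wild types and 11.39, 11.20, 11.45 and 11.07 in mutants. Mutants 2 and 4 were lower than their partners by -0.38 each, and mutants 1 and 3 were higher by 0.069 and 0.23. The change was -0.11 (SE 0.07, 95% interval -0.29 to 0.064, limma adjusted p = 0.713), and a second probe was at -0.21 (SE 0.07, limma unadjusted p = 0.0277, adjusted p = 0.722), lower on 4 of 4 arrays. Eif4g1, the gene of the scaffold that joins the cap to eIF3, had levels of 13.97, 13.91, 13.87 and 13.87 in wild types and 14.02, 13.80, 13.72 and 13.86 in mutants, with a change of -0.059 (SE 0.07, limma adjusted p = 0.860). All 8 of these values lay between 13.72 and 14.02. Eif4h, a cofactor of the helicase eIF4A, had levels of 13.73, 13.94, 14.18 and 13.96 in wild types and 13.95, 14.12, 14.25 and 14.07 in mutants. Each mutant lay above its partner, by 0.22, 0.18, 0.074 and 0.12, while the groups overlapped because the pairs differed in level. The change was 0.15 (SE 0.07, 95% interval -0.029 to 0.32, limma adjusted p = 0.707). The helicase genes Eif4a1 and Eif4a2 were at -0.0013 and 0.16, and a second Eif4a2 probe was at 0.18.

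Eif4ebp2 encodes an inhibitor that holds eIF4E when mTOR is inactive. Its levels were 12.72, 12.73, 12.57 and 12.44 in wild types and 12.22, 12.69, 12.31 and 12.75 in mutants, with ratios of -0.50, -0.031, -0.26 and 0.32. The mutants held both the lowest samples and the highest one. Its change was -0.12 (SE 0.09, limma adjusted p = 0.756), and Eif4ebp3 and Eif4enif1, genes of other proteins that bind eIF4E, were at 0.056 and -0.036. Eif6, whose product keeps the large ribosomal subunit from joining too early, had levels of 11.61, 11.41, 11.54 and 11.66 in wild types and 11.84, 11.66, 11.60 and 11.69 in mutants. Mutants 1 and 4 stood above all wild types, mutant 2 was level with the highest of them, and mutant 3 lay among them. The change was 0.14 (SE 0.08, 95% interval -0.054 to 0.34, limma adjusted p = 0.707). Eif4a3, the helicase gene of the exon junction complex, had levels of 9.69, 9.14, 9.71 and 9.92 in wild types and 9.32, 9.30, 9.38 and 10.08 in mutants, with a change of -0.096 (SE 0.07, limma adjusted p = 0.735).

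eIF5A carries the modified residue hypusine and acts on stalled ribosomes, in spite of its name. Eif5a had levels of 13.13, 12.68, 13.32 and 13.21 in wild types and 12.99, 13.02, 12.80 and 13.42 in mutants, and Eif5a2, the gene of its less widespread form, had 8.96, 8.95, 8.62 and 9.03 and then 9.10, 8.68, 8.78 and 8.80. In both genes the ranges of the genotypes overlapped for most of their width, with changes of -0.026 (SE 0.09, limma adjusted p = 0.951) and -0.047 (SE 0.07, limma adjusted p = 0.875).

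The elongation factors proper showed no common direction either, with 3 of 6 genes higher and a median of 0.017. Eef1a1, the form found in most cell types, had levels of 12.88, 13.05, 13.14 and 12.96 in wild types and 12.75, 12.72, 13.16 and 13.03 in mutants. Both male mutants were below their partners, by -0.12 and -0.33, and both female mutants were near theirs, at 0.017 and 0.071. The change was -0.091 (SE 0.09, 95% interval -0.33 to 0.14, limma adjusted p = 0.818), and a second probe gave -0.094. Eef1a2, the muscle form, had levels of 13.26, 13.50, 13.53 and 13.72 in wild types and 13.63, 13.35, 13.67 and 13.77 in mutants. The ratio was highest in male pair 1, at 0.36, and below 0 in male pair 2, at -0.16, for a change of 0.10 (SE 0.08, 95% interval -0.10 to 0.31, limma adjusted p = 0.763). Eef2, the translocase gene, had levels of 15.62, 15.92, 15.78 and 16.01 in wild types and 15.90, 15.78, 15.84 and 15.98 in mutants. Its mutants all lay inside the wild type range, and the change was 0.038 (SE 0.08, 95% interval -0.15 to 0.23, limma adjusted p = 0.914). Of the eEF1B exchange factor genes, Eef1b2 was at -0.0039, Eef1d at 0.089 and Eef1g at -0.0035.

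Genes whose products modify elongation factors were higher in 3 of 6 cases, with a median of -0.0075. Eef2k, the gene of the kinase that inactivates eEF2, had levels of 8.90, 8.85, 8.91 and 9.24 in wild types and 8.99, 8.78, 8.67 and 8.82 in mutants. The female pairs had ratios of -0.24 and -0.41 and the male pairs 0.093 and -0.071, for a change of -0.16 (SE 0.10, 95% interval -0.41 to 0.092, limma adjusted p = 0.714). Other Eef2k probes gave -0.11 and 0.030. Eef1akmt2, a methyltransferase gene for eEF1A, had levels of 8.90, 8.42, 8.99 and 9.002 in wild types and 8.80, 8.55, 8.68 and 8.89 in mutants, with a change of -0.096 (SE 0.08, limma adjusted p = 0.778). Eef1akmt1, another such gene, was at 0.14, and Eef2kmt, which encodes a methyltransferase of eEF2, at 0.046. Eef1e1, the gene of a scaffold protein of the aminoacyl-tRNA synthetase complex, was at -0.013.

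**Figure D2:**
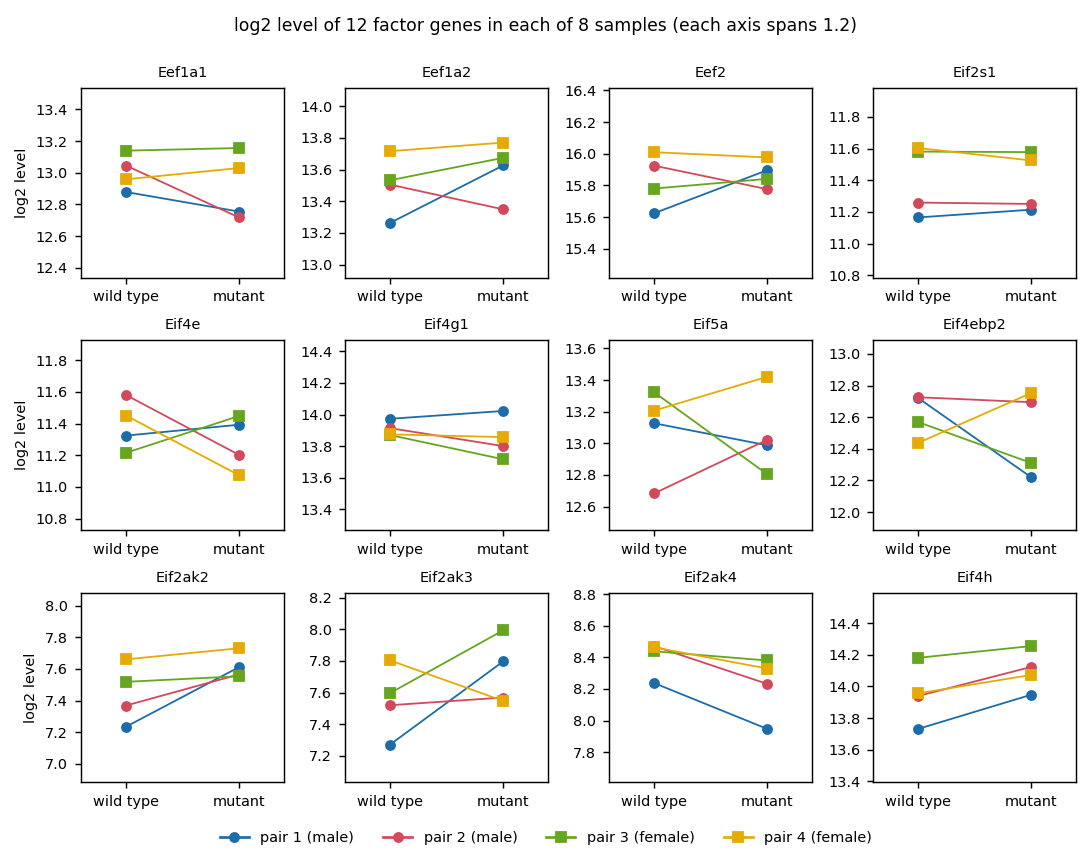
log2 level (y axis, each panel spanning 1.2) of 12 factor genes in wild type and mutant samples, with a line for each of the 4 pairs and squares for females. For Eif2ak2 and Eif4h all 4 lines run upwards and for Eif2ak4 all 4 run downwards, and each of the other panels holds lines of both slopes.

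Initiation and elongation factors did not separate. Kinases, proteins that bind eIF4E, methyltransferases, Eif4a3, Eif4a3l1 and Eef1e1 were set aside. Eif1ad, Eif5a and Eif5a2 were counted as initiation factors by name. The median log2 change was 0.0028 over 41 initiation factor genes and 0.017 over 6 elongation factor genes, a difference of -0.014. With Eif5a and Eif5a2 counted as elongation factors it was 0.0073. Per array, the initiation median was 0.049, 0.13, -0.022 and 0.041 and the elongation median 0.27, -0.099, 0.041 and 0.027. Initiation minus elongation was therefore -0.22, 0.23, -0.062 and 0.014 on arrays 1 to 4, with a mean of -0.011 ± 0.19 (SD, n = 4 arrays). It was lower on array 1 and higher on array 2, both of them male pairs, and near 0 in the female pairs. Arrays of 4 pairs cannot give a permutation p below 0.125, so no test of it was made. Over all 50 Eif and all 13 Eef genes, regulators included, the medians were 0.00074 and -0.0035.

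**Figure D3:**
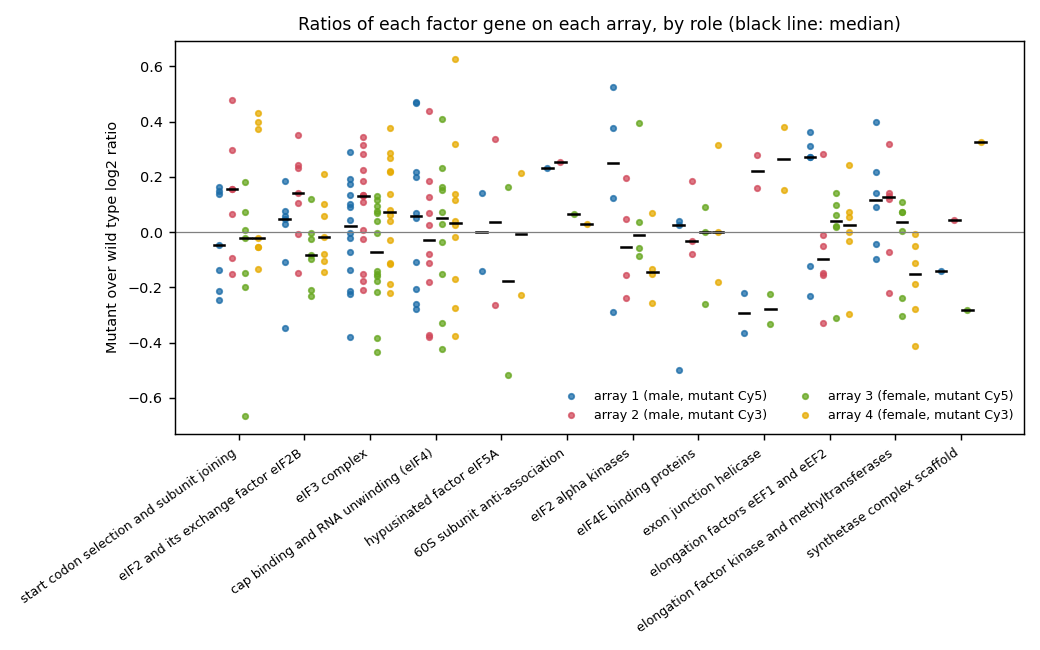
Mutant over wild type log2 ratio (y axis) of each factor gene on arrays 1 to 4 (colours), grouped by role (x axis), with black lines at the medians. Medians of the roles lie on both sides of 0 and change side between arrays, as for the elongation factors at 0.27 on array 1 and -0.099 on array 2.

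Between arrays, the ratios of the factor genes were alike where the dye orientation was the same. Across the 63 genes the ratios correlated positively between arrays of the same dye orientation, at Pearson r = 0.66 (Spearman rho = 0.64) for arrays 1 and 3 and r = 0.58 (rho = 0.58) for arrays 2 and 4. Arrays of opposite orientation correlated negatively, from r = -0.37 for male arrays 1 and 2 to -0.63 for female arrays 3 and 4. Over all 11453 genes the corresponding Pearson values were 0.14, 0.43, 0.30 and -0.33, and Spearman's rho for arrays 1 and 2 was -0.025. These are descriptions across genes, which share arrays and are not independent. The fitted dye coefficient was larger in size than the genotype change in 46 of the 63 genes, against 62.7% of all genes. It had an unadjusted p under 0.05 in 20 of them (31.7%), against 21% of all genes, and an adjusted p under 0.05 in 0 (0% of all genes). Eif3e gave the pattern plainly, with ratios of -0.38, 0.35, -0.43 and 0.38 and a change of -0.023. Each sex had both orientations, so the mean over the 4 arrays weighs them equally. The arrays of the 2 orientations also held different animals, and the cause of this gap was not tested.

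**Figure D4:**
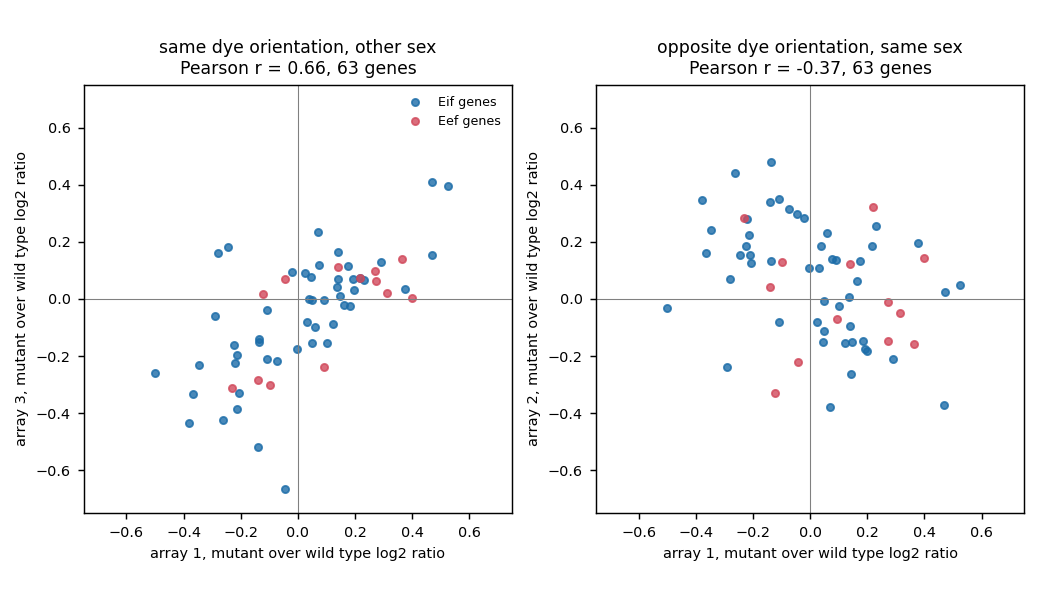
Mutant over wild type log2 ratios of the 63 factor genes on array 3 (left, y axis) and array 2 (right, y axis) against array 1 (x axes). Arrays 1 and 3, which share the dye orientation, correlate at r = 0.66, and arrays 1 and 2, which share the sex, at r = -0.37.

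The genotype effect did not differ detectably between the sexes. The sex term had an adjusted p under 0.05 in 0 of 63 genes, against 3.89% of all genes tested, and an unadjusted p under 0.05 in 0, against 12.7% (limma). The smallest p was that of Eef2k, at 0.011 in males and -0.33 in females (limma adjusted p = 0.391). The median effect was 0.029 in males and -0.0054 in females. With 1 residual degree of freedom this test has little precision, and the SE of the difference was about 0.14 for Eef2k.

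Levels in females and males were compared on the single channels, with the array as a random block. Here too 0 factor genes passed an adjusted p under 0.05 (0.585% of all genes), and 9 had an unadjusted p under 0.05 (18.4% of all genes). Fitted levels were higher in females for 47 genes, where 60.4% of all genes were, with a median of 0.12 against 0.053. Eif4g2, whose product drives cap-independent initiation, had mean levels of 12.35 in females and 11.93 in males, a difference of 0.42 (SE 0.10, limma adjusted p = 0.110). Eif2s1 was 0.35 higher in females (SE 0.09, limma adjusted p = 0.127) and Eef1e1 0.42 higher (SE 0.11, limma adjusted p = 0.129). A second, dimmer Eif2s1 probe went the other way, with mean levels of 8.11 in females and 8.32 in males. By the brightest probe, all 4 female levels lay above all 4 male levels in 6 genes (Eef1aknmt, Eef1e1, Eif2b1, Eif2s1, Eif4a1 and Eif4e2). The female levels all lay below the male levels in 1, Eif3j2, where 14.5% of all genes did not overlap between the sexes. Each array held 1 sex, so 2 arrays stand for each.

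Of 91 probes for the factor genes, 86 passed the filter, and 20 genes had more than 1 such probe. In 12 of these genes all probes shared a sign. Eif4b, a cofactor of eIF4A, had 3 probes at 0.094, -0.023 and -0.13. Averaging the probes of a gene gave 2 genes with an unadjusted p under 0.05, Eif1 at 0.17 and Eif2s2 at 0.20, each with limma adjusted p = 0.708, against 5.94% of all genes with such a p.

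Promoter letters are shown for the factor genes described by sample above that hold an E-box, a binding motif of MYC, USF and related factors, since several genes of cap-dependent initiation are textbook MYC targets. RefSeq promoters of build GRCm38.p6, 250 bases before to 50 after each annotated start, matched 50 of the 63 genes, and both strands were searched. The E-box CACGTG occurred in 14 of them (28%), against 12.1% of the tested genes with a promoter and 8.09% of all genes with one. The capitals mark the E-box.
Eef2, chr10:81176571-81176610, plus strand: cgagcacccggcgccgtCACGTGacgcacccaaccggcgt
Eef2k, chr7:120842783-120842822, plus strand: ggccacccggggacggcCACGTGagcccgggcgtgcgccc
Eif4e, chr3:138527023-138527062, plus strand: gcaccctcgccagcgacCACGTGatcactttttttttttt
Eif4g1, chr16:20672656-20672695, plus strand: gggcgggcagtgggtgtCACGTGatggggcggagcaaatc
Eif4h, chr5:134639483-134639522, minus strand: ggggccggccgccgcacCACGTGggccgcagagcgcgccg
Eif5a, chr11:69920786-69920825, minus strand: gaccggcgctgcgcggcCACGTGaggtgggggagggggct
Eif5a, chr11:69921438-69921477, minus strand: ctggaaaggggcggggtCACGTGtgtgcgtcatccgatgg
Eif5a2, chr3:28781118-28781157, plus strand: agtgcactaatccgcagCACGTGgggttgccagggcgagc
Among the 14 genes with an E-box 7 had higher and 7 lower values, with a median log2 change of 0.0020, and the other 36 with a promoter had a median of -0.0038. The letters CGGAAG, found at sites of ETS factors and not overlapping the E-box, occurred in 27 (54%), against 34.3% of tested genes. Of these 27 genes 8 were higher and 19 lower, with a median of -0.021, against 0.039 without them. Over all genes tested 54.2% were higher, and the share among those holding CGGAAG or the E-box was not computed. No test of the letters was made. TGATGCAAT, the composite motif bound by ATF4 with C/EBP proteins, occurred in 0 of 50 (0.109% of tested genes). A match says only that these letters are there.

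Many mRNAs of the translation machinery begin with a terminal oligopyrimidine (TOP) run, through which mTOR controls their translation. A C followed by further C or T letters, 6 or more in all and starting within 5 bases of the annotated start on the transcribed strand, occurred in 5 of the 50 genes (10%), against 9.92% of tested genes. The 30 bases around the start are given for Eef1a1 and Eif3f, with the run in capitals. The run begins 5 bases before the annotated start in Eef1a1 and 4 bases before it in Eif3f. Whether either run is the first stretch of the mRNA was not tested. A run farther than 5 bases from the annotated start was not counted, so the search can miss TOP mRNAs.
Eef1a1, chr9:78481715-78481744, minus strand: cgtgtgctggctccgCCCTCTTCCCgaggg
Eif3f, chr7:108934395-108934424, plus strand: gctcttctgttctaggCTCTCTCTCTTTCT
Both genes are described above, Eef1a1 at -0.091 and Eif3f at 0.12. With Eif2b2, Eif3l and Eif4g1 the 5 genes had a median change of -0.031, 1 of them higher and 4 lower. The same split over all tested genes with such a run was not computed.

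Other genes of the pathway were examined in the same way. Of 56 listed genes, 55 were tested, 25 with higher and 30 with lower values and a median of -0.0049. The median size of a change was 0.068, and 0 passed an adjusted p under 0.05 (0.0175% of all genes). The unadjusted p was under 0.05 for 2 higher genes (3.41% of all genes) and 1 lower (2.46% of all genes). These were Dph6, of the synthesis of diphthamide on eEF2, at 0.25, Ppp1cc, a catalytic subunit of protein phosphatase 1, at 0.24, and Guf1, a mitochondrial elongation factor gene, at -0.38 with ratios of -0.49, -0.34, -0.44 and -0.23, each with limma adjusted p = 0.707. Ppp1cc and Guf1 lie on chromosome 5, as Pus1 does, and any part of DNA linked to Pus1 in their values was not tested. The genes of the mTOR, S6 kinase and MNK branch had 3 of 11 higher and a median of -0.047. The mitochondrial translation factors had 5 of 11 higher and a median of -0.0080. The mitochondrial initiation factor gene Mtif2 and Pdcd4, whose product inhibits eIF4A, named after their values were seen, had an adjusted p under 0.05 in the sex term. They were 2 of the 55 genes, where 3.89% of all genes passed. For Mtif2 the change was -1.56 in males but 0.21 in females (difference between the sexes, limma adjusted p = 0.00156). For Pdcd4 it was -1.31 and 0.025 (limma adjusted p = 0.00387). The ratios on arrays 1 to 4 were -1.195, -1.93, 0.556 and -0.138 for Mtif2 and -0.778, -1.85, 0.405 and -0.355 for Pdcd4. The female pairs thus differed in sign in both genes. Both male wild types lay above all other samples in each gene, at 16.05 and 16.82 for Mtif2. In neither gene did the genotype effect over both sexes pass, at -0.68 and -0.64.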

How the data were processed

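Dual-colour Agilent arrays measured RNA of 8 samples on 4 arrays. The authors deposited each scan as spot intensity and log10 ratio values made with Agilent Feature Extraction 10.7.3.1, per the file headers, with flags for background, saturation and outlier spots. The authors also deposited a table of log2 values, whose making is not stated. The scale was read from the data: mutant minus wild type correlated with the scanner ratio at r = 0.980 to 0.989, with slopes of 0.979 to 1.03. Each probe was centred on its median over the samples, and its direction followed the labels. Its column medians were -0.035, -0.062, 0.013 and 0.0036 in wild types and -0.0017, 0.0066, 0.0046 and 0.019 in mutants.

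Median spot intensity was background-corrected (normexp, offset 50) and loess-normalized in limma 3.58.1 (R 4.3.3), control and outlier spots with weight 0. A probe was kept if, in each of the 4 samples of either genotype, 50% or more of its spots exceeded background by the scanner's flag, and the brightest probe stood for a gene. Names came from accessions matched to RefSeq, giving 27656 of 55681 probes 1 gene name. The log2 ratios were fitted with a dye term (2 residual and 3.22 prior degrees of freedom), adjusted by Benjamini-Hochberg over 11453 genes, with a sex term in a second fit. Levels came from single channels after Aquantile scaling, with the array as a random block (correlation 0.34). The number of arrays limits the precision, and p-values measure the spread between these animals. The methods were tested on simulated data.

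The members and lists were chosen with earlier results of these data known. Values in every sample are given for the 6 members of smallest p in each direction, for Eef1a1, Eef1a2, Eif5a, Eif5a2, Eef2, Eif2s1, Eif4e, Eif4g1 and Eif4ebp2, and other members are given by role. Samples of one number shared an array. Their deviations from the group means correlated at 0.38, 0.25, 0.12 and 0.50 over all genes and at 0.051, 0.36, -0.088 and 0.11 over the factor genes. The numbers were taken to pair the samples from the values over all genes. Samples of one number also share the array and the sex, and samples of different numbers were not compared. These correlations therefore cannot tell paired animals from a shared array. Alternatives were other background, scaling, probe filter and probe choices, the scanner's ratio, the value table, no dye term, no replicate block and each pair left out.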

Additional observations from a re-analysis of the deposited data

Results flagged for a closer look

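In each factor gene the 4 wild type levels, the 4 mutant levels and the 4 ratios were searched for a sample far from the others by Dixon's criterion. Of 189 such groups 9 went beyond it, where chance gives about 1 in 20. In 4 of the 9 the sample was mutant 2, a male. Its log2 level was 14.81 for Eef1d, an eEF1B subunit gene, where the other mutants ran from 14.94 to 14.96. It was 14.01 for Eif3c (others 13.74 to 13.76), 12.59 for Eif3f (others 12.73 to 12.75) and 13.53 for Eif4a2 (others 14.02 to 14.08). Mutant 4 had 10.08 for Eif4a3, with the others at 9.30 to 9.38.

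Among wild types, sample 4 had 9.24 for Eef2k (others 8.85 to 8.91) and 7.87 for Eef2kmt (others 7.47 to 7.52), and sample 1 had 8.24 for Eif2ak4 (others 8.44 to 8.47). The Eef2kmt ratio on array 4 was -0.19, with the other arrays at 0.11 to 0.14.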

How the results depend on the processing

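In the genotype and sex-term tests 0 of the 63 factor genes had a limma adjusted p under 0.05 under any alternative run. The medians of initiation and elongation factors and their difference moved by less than 1 SD over arrays under each alternative. Of the 19 genes given by sample, 14 kept their sign throughout, but 17 moved by over 1.5 times under at least 1 alternative. Eif2ak2 was 0.084 without pair 1, 0.26 without pair 3, 0.32 by the scanner's ratio and 0.39 in the value table, and Eif2ak3 was 0.10 without pair 2, 0.31 and 0.37. Eef2k ran from -0.24 without pair 1 or 2 to -0.075 and -0.072 without pair 3 or 4, and Eif4ebp2 from -0.21 without pair 4 to -0.032 without pair 2. Median centring gave 0.00017 for Eif5a and 0.022 for Eif2s1, the scanner's own ratio gave 0.032 for Eif2s1, and the value table gave 0.0021 for Eif5a, 0.044 for Eif2s1 and 0.042 for Eif4g1. With each pair left out in turn, Eif5a ran from -0.12 to 0.069, Eif2s1 from -0.028 to 0.0072, Eef2 from -0.015 to 0.091 and Eef1a1 from -0.19 to 0.0089. The cause of these changes of sign was not tested.

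Without the replicate block (no pairing by array), the genotype test again called 0 factor genes. By the brightest probe, the female against male levels called 3: Eif4g2 (limma adjusted p = 0.0360), Eef1e1 (0.0437) and Eif2s1 (0.0461). Fits of levels that leave out a pair used the array correlation of all 8 samples.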
